A study of Mus musculus with 17 samples.

Results

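Of the 2615 genes in the deposited count table, 208 (7.95%) were long noncoding RNA genes, taken by their annotated biotype and by no measured value. They comprised 141 lincRNA genes (long intergenic noncoding RNAs), 35 antisense_RNA genes, 25 processed_transcript genes, 3 bidirectional_promoter_lncRNA genes, 3 sense_intronic genes and 1 sense_overlapping gene. All 208 gene identifiers were found in GENCODE vM21, each under a long noncoding RNA type, and 204 had the same coordinates there. Polyadenylated RNA of MII oocytes from 8-week-old C57BL/6J mice was sequenced in 3 control libraries (replicates 1, 2 and 6) and 3 Ehmt2GKO libraries (replicates 3, 4 and 5). Control females were Ehmt2(flox/flox), and Ehmt2GKO females were Ehmt2(flox/flox); Gdf9-Cre, so both groups carried the floxed alleles and they differed in the Cre. Gdf9-Cre acts in oocytes from the primordial follicle stage, and not in the surrounding follicle cells. The oocytes had been collected after superovulation, and the number of oocytes or females pooled in a library was not given in the sources used here. The p-values below therefore measure only the spread between these libraries, which may be technical.

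Long noncoding RNAs are transcripts without a long open reading frame, and many of them are spliced and polyadenylated like mRNAs. They are sorted by position: a lincRNA lies between genes, an antisense RNA runs against another gene, and a bidirectional promoter RNA leaves a coding gene's promoter in the opposite direction. Mouse oocytes are known for transcripts that start in retrotransposon long terminal repeats, many of them noncoding and oocyte-specific. EHMT2 (G9a) is a histone methyltransferase that places H3K9me2, a mark of silent chromatin that also covers many repeats.

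The table holds only genes with a deposited adjusted p-value under 0.05 for these same 6 libraries, so every member had already been selected for a difference. The counts and p-values below describe how far and in which direction the selected genes differed. The listed genes took 4060653 to 4258350 reads per library, a sum over selected genes that is not the sequencing depth. Of 20 oocyte markers, 6 were listed. Zp3 was called lower (log2 change −1.05), Zp1 and Zp2 were also negative (−0.86 and −0.40), and Padi6, Mos and Nlrp5 were positive (0.48, 0.51 and 0.42). Their reads summed to 41254 to 51323 in control libraries and 50733 to 53268 in Ehmt2GKO libraries. Of 24 cumulus and granulosa markers, Ptgs2 and Kitl were listed, with summed reads of 335 to 374 in control libraries and 247 to 332 in Ehmt2GKO libraries. Ptgs2, a prostaglandin synthase of cumulus cells, was called higher with 6, 10 and 14 reads against 107, 74 and 59, while Kitl had a log2 change of −0.63. What part these cells have in the values of the members was not tested. Ehmt2 and the remaining markers were not analysed here, so neither the deletion nor the oocyte stage was checked from the counts. The labels call both groups MII oocytes, but the study describes arrest of Ehmt2GKO oocytes in the first meiotic metaphase, so genotype and stage cannot be told apart here. As these are bulk libraries, fewer cells of a kind and less RNA per cell cannot be told apart.

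Most members had a start sequence unlike that of any other member, while 46 (22.1%) shared a stretch with at least 1 other, and the following windows are shown because they represent the largest sets of such members. Each window runs from 250 bases before to 50 bases after the annotated start on GRCm38, written 5′ to 3′ on the gene's own strand and read from the RefSeq GRCm38.p6 genome. The first set is represented by Gm29129 (chr7:36568493-36568792, + strand), Gm31925 (chr1:161890208-161890507, + strand) and Gm13715 (chr2:85233425-85233724, + strand). Capitals mark every base in a run of 12 bases that all 3 windows hold on either strand, and Gm13715 holds the shared stretch in the opposite orientation.
Gm29129: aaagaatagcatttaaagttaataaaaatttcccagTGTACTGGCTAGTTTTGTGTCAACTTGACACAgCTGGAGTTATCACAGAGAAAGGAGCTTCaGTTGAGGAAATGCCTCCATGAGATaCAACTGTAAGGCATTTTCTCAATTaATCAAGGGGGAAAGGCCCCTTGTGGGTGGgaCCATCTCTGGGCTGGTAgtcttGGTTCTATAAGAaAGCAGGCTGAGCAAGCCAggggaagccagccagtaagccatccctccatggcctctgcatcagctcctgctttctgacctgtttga
Gm31925: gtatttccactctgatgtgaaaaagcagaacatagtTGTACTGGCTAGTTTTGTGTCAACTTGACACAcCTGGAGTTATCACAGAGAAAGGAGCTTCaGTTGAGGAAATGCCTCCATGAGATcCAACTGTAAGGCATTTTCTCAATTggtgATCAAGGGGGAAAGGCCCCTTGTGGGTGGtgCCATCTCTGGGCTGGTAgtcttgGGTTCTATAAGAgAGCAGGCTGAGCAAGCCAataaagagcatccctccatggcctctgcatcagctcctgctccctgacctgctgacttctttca
Gm13715: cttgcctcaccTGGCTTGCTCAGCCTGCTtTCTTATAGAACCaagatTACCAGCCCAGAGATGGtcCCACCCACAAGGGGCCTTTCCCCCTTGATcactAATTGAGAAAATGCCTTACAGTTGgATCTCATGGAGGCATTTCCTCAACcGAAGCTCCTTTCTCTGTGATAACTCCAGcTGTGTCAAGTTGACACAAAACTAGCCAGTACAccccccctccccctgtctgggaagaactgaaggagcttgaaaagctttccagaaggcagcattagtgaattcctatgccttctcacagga
The second set is represented by Gm45659 (chr8:43914555-43914854, − strand), Gm28940 (chr1:82402697-82402996, − strand), AC138027.1 (chr12:47532007-47532306, + strand) and Gm44693 (chr8:5440941-5441240, − strand), with capitals drawn in the same way.
Gm45659: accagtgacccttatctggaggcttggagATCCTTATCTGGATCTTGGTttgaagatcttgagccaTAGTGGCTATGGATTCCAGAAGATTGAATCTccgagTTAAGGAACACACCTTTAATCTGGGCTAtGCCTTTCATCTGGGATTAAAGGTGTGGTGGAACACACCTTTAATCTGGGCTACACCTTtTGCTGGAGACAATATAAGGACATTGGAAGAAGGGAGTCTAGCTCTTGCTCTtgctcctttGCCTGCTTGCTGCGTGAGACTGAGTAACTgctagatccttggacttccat
Gm28940: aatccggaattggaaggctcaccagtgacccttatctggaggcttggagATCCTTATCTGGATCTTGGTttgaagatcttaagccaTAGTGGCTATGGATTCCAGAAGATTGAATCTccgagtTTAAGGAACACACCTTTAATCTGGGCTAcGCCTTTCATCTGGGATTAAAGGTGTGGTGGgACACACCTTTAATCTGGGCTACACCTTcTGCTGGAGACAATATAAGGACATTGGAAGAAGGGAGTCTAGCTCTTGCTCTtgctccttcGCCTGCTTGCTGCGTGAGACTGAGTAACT
AC138027.1: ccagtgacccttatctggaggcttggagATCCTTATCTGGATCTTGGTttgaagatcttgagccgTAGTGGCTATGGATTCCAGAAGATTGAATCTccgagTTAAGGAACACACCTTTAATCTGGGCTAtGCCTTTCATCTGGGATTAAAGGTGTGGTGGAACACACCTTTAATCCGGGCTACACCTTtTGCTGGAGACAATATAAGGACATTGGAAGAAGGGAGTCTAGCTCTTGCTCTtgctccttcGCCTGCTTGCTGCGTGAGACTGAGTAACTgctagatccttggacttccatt
Gm44693: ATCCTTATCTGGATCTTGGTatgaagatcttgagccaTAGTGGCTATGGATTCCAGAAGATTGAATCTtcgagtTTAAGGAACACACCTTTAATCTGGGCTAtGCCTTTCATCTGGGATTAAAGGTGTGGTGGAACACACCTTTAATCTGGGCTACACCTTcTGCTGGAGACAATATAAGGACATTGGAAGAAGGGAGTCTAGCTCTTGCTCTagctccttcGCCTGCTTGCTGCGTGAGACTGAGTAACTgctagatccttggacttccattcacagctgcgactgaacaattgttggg
The 4 windows of the second set had 216 or 217 of 300 bases in capitals, and the 3 windows of the first set had 184 each. For contrast, 2610507I01Rik (chr11:59202336-59202635, − strand), whose start faces that of the coding gene Mrpl55, and Gm45768 (chr7:37321051-37321350, − strand), the lincRNA with the largest rise, are shown with CG dinucleotides in capitals.
2610507I01Rik: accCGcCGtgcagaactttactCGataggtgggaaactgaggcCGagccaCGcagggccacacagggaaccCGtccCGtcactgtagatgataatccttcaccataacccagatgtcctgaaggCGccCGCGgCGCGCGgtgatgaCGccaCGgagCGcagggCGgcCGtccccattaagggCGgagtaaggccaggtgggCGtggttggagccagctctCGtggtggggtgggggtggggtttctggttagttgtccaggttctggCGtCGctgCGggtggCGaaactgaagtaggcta
Gm45768: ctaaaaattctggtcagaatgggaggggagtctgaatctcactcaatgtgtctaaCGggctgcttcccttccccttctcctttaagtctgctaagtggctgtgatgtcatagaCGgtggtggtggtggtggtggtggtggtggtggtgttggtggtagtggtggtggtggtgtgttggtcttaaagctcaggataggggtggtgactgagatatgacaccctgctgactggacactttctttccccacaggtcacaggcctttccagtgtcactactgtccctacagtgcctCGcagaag
The window of 2610507I01Rik held 25 CG dinucleotides and that of Gm45768 held 3.

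More long noncoding RNA genes were lower than higher in Ehmt2GKO oocytes. Of the 208 members, 186 had enough reads to be tested, 68 of these were lower, 39 were higher and 79 were not called. A gene was called at more than a 2-fold change and an adjusted p below 0.01 in edgeR's quasi-likelihood test with Benjamini-Hochberg adjustment over all 2516 tested genes. The 107 called members were 57.5% of the tested members, against 35.7% of all tested genes. By direction, 36.6% of tested members were called lower against 16.9% of all tested genes, and 21.0% were called higher against 18.7%. Among all tested genes the split ran the other way, with 471 called higher and 426 called lower. The sign of the log2 change was negative in 127 and positive in 59 of the tested members, whereas it was negative in 1272 and positive in 1244 of all tested genes. The median log2 change of the tested members was −0.69. That of all tested genes was −0.32, a value that sits beside the gap around 0 left by the selection, so its sign changed when the filter on low counts was dropped or when any 1 control library was left out. When the fold itself was tested against 2, 14 members were higher and 10 were lower, so the preponderance of falls holds for the calls above and not for this stricter rule. Rises also led among all genes under that rule, where 71.2% of 260 calls were higher. Of the called members, 41.7% were lower.

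The called rises had a larger median size than the called falls, as among all tested genes. Called members that rose had a median log2 change of 1.71 (range 1.05 to 8.49, the last for a gene with 2 control reads), and 14 of the 39 exceeded 2. Called members that fell had a median of −1.49, and 13 of the 68 passed −2. Over all tested genes the medians were 1.71 and −1.41, with 193 of 471 rises over 2 and 64 of 426 falls past −2. The median of the members that fell was the same with Gm13715, which had no read in any Ehmt2GKO library, set to its bound. The largest fall among the other called members was −3.90. At the threshold, the last member inside had a log2 change of 1.0001 in size (Gm2694) and the first outside 0.99 (Gm4961). Of the 79 members not called, 78 had an adjusted p below 0.01 in edgeR's quasi-likelihood test with Benjamini-Hochberg adjustment, so it was the fold that kept them out. Normalized counts of the groups did not overlap in 181 of 186 tested members (97.3%), against 96.1% of all tested genes.

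Abundance moved with these counts. In a table selected by p-value, a gene with few reads is listed only where its change is large. Under 100 normalized counts (reads divided by the library's median-ratio size factor, averaged over the 6 libraries), 68 of 70 tested members and 486 of 538 other tested genes were called. Between 100 and 1000, 34 of 83 members (41.0%) and 266 of 1099 other genes (24.2%) were called. At 1000 and above, the shares were 5 of 33 (15.2%) and 38 of 693 (5.48%). The tested members had a median of 171 normalized counts, against 360 for all tested genes. The share called was thus above that of the other genes in each abundance class, by the widest factor among the most abundant. What part abundance has in the shares over all members was not tested. The preponderance of falls was seen in the lowest class, where 61.4% of members against 36.4% of other genes were called lower, and in the middle class, at 26.5% against 12.5%. In the highest class 3 members were lower and 2 were higher, too few to set a direction.

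**Figure D1:**
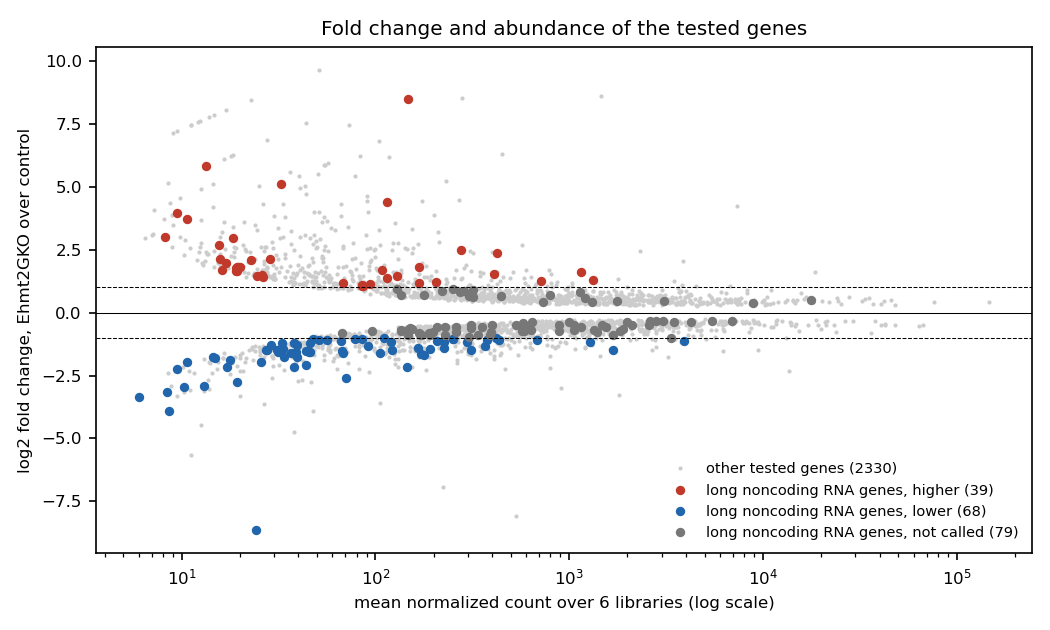
The log2 fold change of each tested gene is plotted against its mean normalized count on a log axis, with long noncoding RNA genes as large points (red higher, blue lower, dark grey not called), other tested genes as small light grey points and dashed lines at 2-fold. Under 100 counts, 68 of 70 members were called, and over all counts 68 blue points lie below the lower line against 39 red points above the upper one.

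**Figure D2:**
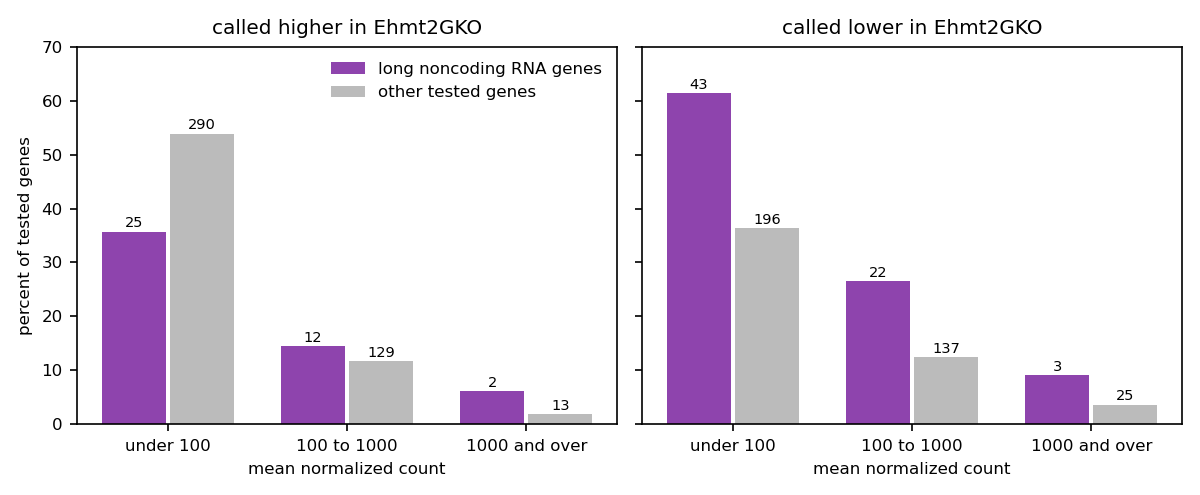
Bars give the percent of tested genes called higher (left) and lower (right) in 3 classes of mean normalized count, with the number called above each bar. Long noncoding RNA genes exceed the other tested genes in the share called lower in all 3 classes, and fall short of them in the share called higher under 100 counts.

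The share of reads taken by the members was lower in Ehmt2GKO oocytes. Members took 3.19%, 3.18% and 3.32% of the reads on listed genes in control replicates 1, 2 and 6, and 2.88%, 2.79% and 2.82% in Ehmt2GKO replicates 3, 4 and 5. The means were 3.23% ± 0.0801 (SD, n = 3) and 2.83% ± 0.0469 (SD, n = 3), and all control libraries lay above all Ehmt2GKO libraries. A two-sided exact permutation test gave p = 0.10, the smallest that 3 against 3 libraries allow. The number of members without a single read went the other way, at 12, 13 and 16 in control libraries and 3, 9 and 4 in Ehmt2GKO libraries.

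A few lincRNAs carried a large share of these reads. The 5 most abundant members took 34.0% of all member reads, and none of them was called. Gm1070, on chromosome 6, had 13392, 15325 and 14787 reads in control libraries and 19026, 19015 and 23902 in Ehmt2GKO libraries. Its log2 change was 0.50 ± 0.11 (SE), so the most abundant member was higher by less than 2-fold while the total was lower. 4933427D06Rik was the only other one of the 5 with a positive change, at 7607, 8312 and 7121 reads against 9963, 9230 and 11126 and a log2 change of 0.39 ± 0.11. AA545190 had 8364, 7266 and 7407 reads against 7351, 5816 and 5495, with a log2 change of −0.32 ± 0.12. Its groups overlapped, as did those of Gm17751 (4026, 4919 and 5453 against 4104, 3699 and 3464, log2 change −0.36 ± 0.11). Those of AU016765 did not, at 6382, 5628 and 6121 reads against 5120, 4806 and 4636 (log2 change −0.33 ± 0.10). On the scale of normalized counts per kilobase of exon, 5 members exceeded 4000 in control oocytes. AA545190 had 6380 per kilobase in control and 5459 in Ehmt2GKO oocytes, and AU016765 had 4957 and 4219. Gm1070 had 4900 and 7419, which put it above AA545190 after the deletion. Gm13752, an antisense RNA gene, had 4378 and 2500, and AC118476.5 had 4333 and 2125.

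AC118476.5 was the most abundant member that was called. This lincRNA gene lies at chr9:120791986-120794882, 137 kb from the start of Ctnnb1, which encodes beta-catenin. It had 5337, 5285 and 5689 reads in control libraries and 2569, 2322 and 2651 in Ehmt2GKO libraries, with no overlap. The log2 change was −1.12 ± 0.10 (SE, adjusted p = 8.9e-08 in edgeR's quasi-likelihood test with Benjamini-Hochberg adjustment). Ctnnb1 itself had a log2 change of 0.51 and was not called. AC118476.5 fell outside the rule for named genes and is given because its values were seen to stand out among the abundant members.

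The largest rise was that of Gm45768, one of 3 neighbouring lincRNA genes on chromosome 7 that all rose. Gm45768 lies at chr7:37317899-37321100 and has a single exon of 3202 bases. It had 1, 1 and 0 reads in control libraries and 357, 218 and 287 in Ehmt2GKO libraries. The ratio of the summed reads, scaled by size factor, was 457, with an exact 95% counting interval of 126 to 3779. Gm28078, 189 kb from Gm45768 on the same strand, had 250, 165 and 207 reads against 685, 535 and 594 (log2 change 1.53 ± 0.16, SE). Gm29129, a further 547 kb away on the other strand, had 121, 109 and 172 reads against 739, 728 and 637 (log2 change 2.38 ± 0.17, SE). None of the 3 overlapped between the groups. The nearest coding starts were those of Zfp536 and Tshz3, both of which encode zinc finger proteins and neither of which was listed. The 3 genes did not share one kind of start, since the window of Gm29129 was masked as repeat over 96.7% of its bases, that of Gm45768 over 31.7% and that of Gm28078 over none.

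Other rises among well-covered members were spread over several chromosomes. C78283, on chromosome 5, had 14, 2 and 14 reads in control libraries and 264, 182 and 196 in Ehmt2GKO libraries (log2 change 4.39 ± 0.37, SE). Gm8817, on the X chromosome, had 70, 67 and 109 reads against 515, 430 and 436 (2.48 ± 0.19). Its nearest coding gene, Tmsb4x, which encodes the actin-binding thymosin beta 4, starts 139 kb away and was also called higher, with 24, 9 and 3 reads against 68, 68 and 105 (log2 change 2.72 ± 0.47). Gm42439, an antisense RNA gene, had 75, 74 and 72 reads against 237, 264 and 271 (1.80 ± 0.19). CT025539.2 had 41, 62 and 48 against 158, 174 and 156 (1.68 ± 0.23), and Gm28644 had 61, 48 and 78 against 135, 162 and 192 (1.38 ± 0.24). In these 5 genes every Ehmt2GKO library lay above every control library. Gm35191 and AC163610.1 closed the list of 12 with larger counts and smaller folds. Gm35191 had 566, 826 and 896 reads against 1886, 1923 and 1769 (1.28 ± 0.14), and AC163610.1 had 384, 423 and 449 against 1021, 1011 and 947 (1.24 ± 0.12). AC163610.1 starts 87.6 kb from Gli3, a transcription factor of Hedgehog signalling, whose log2 change of 0.81 was not called. The adjusted p of all 12 rises was at most 0.000103 in edgeR's quasi-likelihood test with Benjamini-Hochberg adjustment.

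**Figure D3:**
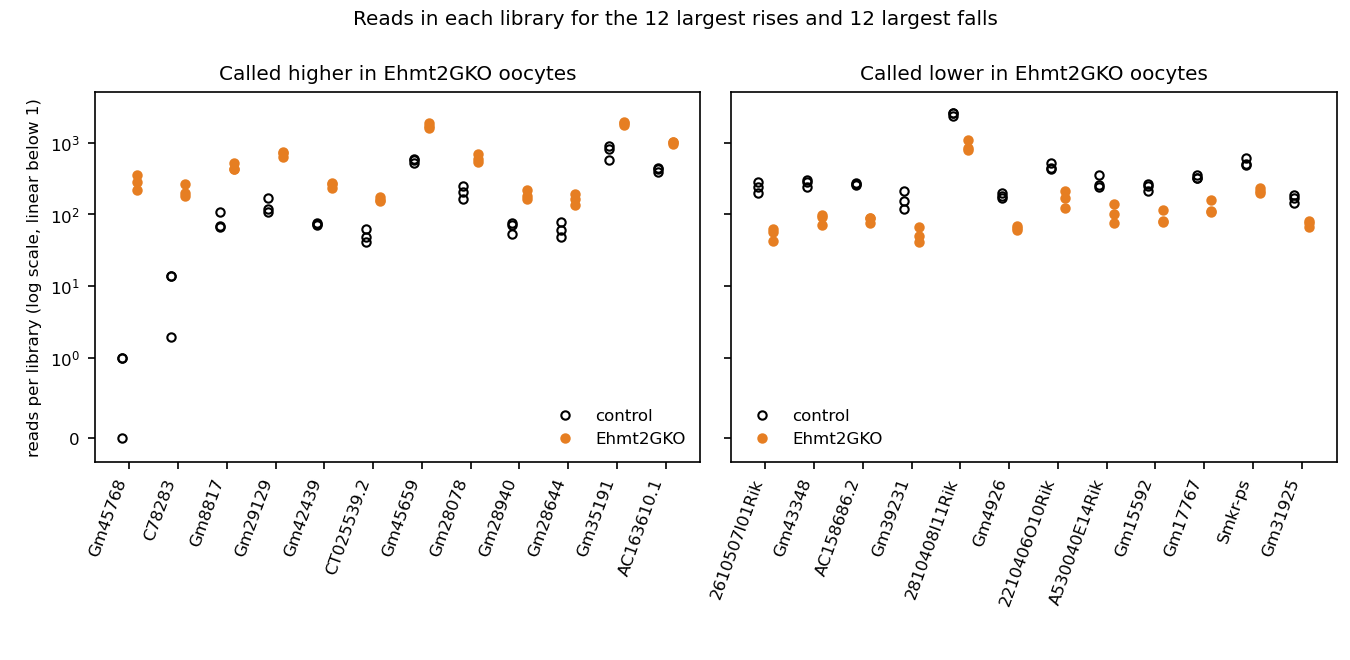
Points give the reads in each of 3 control libraries (open) and 3 Ehmt2GKO libraries (filled) for 12 members that rose most and 12 that fell most of those called at 100 or more mean normalized counts, on a log axis that is linear below 1. The groups do not overlap for any of the 24 genes, and only Gm45768 and C78283 come near 0 in the control libraries.

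Among the well-covered members, the largest fall was that of 2610507I01Rik, at chr11:59199836-59202385, with 198, 239 and 287 reads in control libraries and 43, 57 and 63 in Ehmt2GKO libraries (log2 change −2.15 ± 0.22, SE). Its start lies 101 bases from that of Mrpl55, which encodes a mitochondrial ribosomal protein and was not listed. 2210406O10Rik, 145 bases from Grpel1, which encodes a nucleotide exchange factor of mitochondrial protein import, had 528, 441 and 424 reads against 213, 124 and 168 (−1.48 ± 0.18). 2810408I11Rik, at chr1:64679871-64690659, was the most heavily read of the 12, with 2589, 2363 and 2613 reads against 1078, 781 and 844 (−1.50 ± 0.12). Its exons overlap those of the cyclin-like gene Ccnyl1 on the opposite strand, and the library kit does not mark strand, so reads of the pair cannot be told apart where they overlap. Ccnyl1 had 2846, 2699 and 3362 reads against 2271, 2497 and 2283, a log2 change of −0.34 ± 0.11, which was not called.

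The other 9 of the 12 falls were intergenic or antisense transcripts. Gm43348 had 244, 305 and 280 reads in control libraries and 99, 72 and 91 in Ehmt2GKO libraries (log2 change −1.67 ± 0.19, SE). AC158686.2, an antisense RNA gene, had 265, 274 and 256 reads against 90, 76 and 89 (−1.65 ± 0.18), and Gm39231 had 155, 119 and 212 against 68, 50 and 42 (−1.61 ± 0.26). Gm43348 and Gm30043 lie 35.1 kb apart on chromosome 3 near the germ cell RNA-binding gene Rbm46 and had opposite signs, since Gm30043 had a log2 change of 0.81 that was not called. Gm4926, 15745 bases from the start of Dppa1, had 169, 178 and 198 reads against 60, 70 and 65 (−1.49 ± 0.21). Gm17767 had 354, 327 and 318 against 111, 109 and 158 (−1.41 ± 0.18), and Smkr-ps had 483, 511 and 602 against 235, 215 and 197 (−1.31 ± 0.14). Gm17767 and Gm28320, 357 kb apart on chromosome 1, were both called lower. A530040E14Rik had 241, 357 and 254 reads against 139, 100 and 75 (−1.45 ± 0.22), and Gm15592 had 253, 211 and 268 against 116, 78 and 81 (−1.42 ± 0.20). Gm31925 had 188, 172 and 145 against 82, 75 and 67 (−1.18 ± 0.21). The groups of these 6 genes did not overlap. The adjusted p of all 12 falls was at most 0.000143 in edgeR's quasi-likelihood test with Benjamini-Hochberg adjustment.

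The split by biotype was not tested, and several biotypes held few genes. Over all tested genes, 18.7% were called higher and 16.9% lower. Of 124 tested lincRNA genes, 30 were higher and 38 lower. Of 33 tested antisense_RNA genes, 7 were higher and 12 lower. Of 22 tested processed_transcript genes, 1 was higher and 13 were lower, and the exception was Gm12299, named here after its values were seen, with 89, 114 and 159 reads against 217, 296 and 332. All 3 bidirectional_promoter_lncRNA genes were called lower. Their strongest was AV356131, which faces the phosphoinositide kinase gene Pik3c2a at 126 bases and had 72, 58 and 60 reads against 13, 15 and 14 (log2 change −2.18 ± 0.33, SE). In the other biotypes the largest changes were those of Gm13398 (antisense_RNA, 121, 126 and 125 reads against 25, 12 and 25), Gm10030 (processed_transcript, 32, 35 and 36 against 8, 5 and 2) and Gm20646 (sense_overlapping, 58, 54 and 72 against 21, 9 and 25). Gm28404, a sense_intronic gene with its start 99099 bases from that of Pign, rose from 1, 4 and 0 reads to 60, 74 and 50 (log2 change 5.09 ± 0.57).

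Some members were at or near 0 in one group. Gm13715, a lincRNA gene on chromosome 2, had 50, 43 and 57 reads in control libraries and none in the 3 Ehmt2GKO libraries, which made it at least 47.2-fold lower against a floor of 3 reads over the group. AC164881.2, on chromosome 9, had 0, 0 and 1 reads against 31, 21 and 25, a ratio of 81.6 with an exact 95% counting interval of 14.2 to 3265. In all, 24 members had at most 3 reads summed over one group, and 16 of these gained reads while 8 lost them. The same split was not counted over all listed genes. Intervals and floors cover counting error only, and amplified reads are not independent molecules.

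The 22 members that were too low to test leaned to rises, unlike the tested ones. Their normalized mean was higher in Ehmt2GKO oocytes in 15 and lower in 7. This split was not counted for the other untested genes, so it cannot be called particular to long noncoding RNA genes. Over all listed genes, 52.5% of calls were higher with the filter on low counts and 54.3% without it. Among the 15 that gained, no control library held more than 7 reads, and 8 had no control read at all. The largest such bounds were those of AC124595.2, with 12, 11 and 8 Ehmt2GKO reads (at least 10.95-fold higher), and Gm39154, with 12, 12 and 5 (at least 10.2-fold higher), both given after their values were seen. Gm44693 had 1, 0 and 1 reads against 15, 30 and 9, a ratio of 28.6 with an exact 95% counting interval of 7.55 to 242. Among the 7 that lost reads, AC192333.3 had 9, 11 and 17 control reads and none in Ehmt2GKO libraries (at least 11.6-fold lower). Gm26715, with 23, 6 and 14 reads against 1, 2 and 2, lies within the span of AC192333.3 (chr13:66244270-66451277), as do the pseudogene AC167192.3 and the zinc finger gene 2410141K09Rik. These had log2 changes of −8.06 and −6.92, and the start windows of AC192333.3 and Gm26715 matched each other at 89.1% identity over 267 bases. Most of a window lies before the start, so this match does not show whether reads of the 2 genes are shared. Near-identical copies of at least 95% identity over 50% or more of the longest transcript were found for 5 members (AC192333.3, Gm17575, Gm26715, Platr30 and Zfp813-ps). Reads could be shared between such copies, so the counts of these 5 are uncertain.

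Few of the well-known long noncoding RNAs were in the table. None of 6 genes of X inactivation and none of 11 imprinted long noncoding RNAs were listed, so they were not analysed here. Of 9 nuclear or widely expressed long noncoding RNAs, 1 was listed: Tug1 had 1178, 1169 and 1014 reads against 861, 902 and 875, a log2 change of −0.36 ± 0.11 (SE) that was not called. Of 20 small nucleolar RNA host genes, 1 was listed: Snhg18, whose intron hosts Snord123, was called lower with 66, 50 and 61 reads against 31, 11 and 18 (−1.57 ± 0.36). Of 31 pluripotency and developmental long noncoding RNAs, 3 were listed, with none called. These were Platr14 (277, 240 and 232 reads against 139, 143 and 123, log2 change −0.90 ± 0.18), Platr20 (6, 7 and 17 against 1, 0 and 1, not tested) and Tunar. Tunar is listed as protein-coding and was not a member, and its 0, 0 and 4 reads against 11, 32 and 7 were too few to test.

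Of 13 microRNA host genes, 1 was listed. Mir22hg, at chr11:75461539-75466676, is the host transcript of miR-22, a microRNA studied in heart and cancer. It had 815, 800 and 822 reads in control libraries and 1351, 1376 and 1598 in Ehmt2GKO libraries, and the groups did not overlap. The log2 change of 0.82 ± 0.11 (SE, adjusted p = 9.5e-06 in edgeR's quasi-likelihood test with Benjamini-Hochberg adjustment) stayed under 2-fold, so the gene was not called. The libraries held polyadenylated RNA, so the mature microRNAs themselves were not measured. They are shown from RefSeq on GRCm38.p6 with the seed, bases 2 to 8, in capitals, at chr11:75463734-75463755 and chr11:75463772-75463793, respectively.
mmu-miR-22-5p: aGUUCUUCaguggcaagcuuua
mmu-miR-22-3p: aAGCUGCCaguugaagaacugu
The seeds of the 2 arms differ. Another 5 members span an annotated microRNA or small nucleolar RNA on the same strand, and Gm28940, AC154367.2 and Smkr-ps among them were called.

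Few factors that degrade or process such transcripts were in the table. Of 37 RNA turnover genes, which include subunits of the RNA exosome and its nuclear adaptors, 5 were listed and none was called. Exosome subunits Exosc9 (log2 change −0.66 ± 0.12, SE) and Exosc7 (−0.37 ± 0.10), the nuclear exosome targeting subunit Rbm7 (−0.39 ± 0.10) and the nonsense-mediated decay factor Upf2 (−0.50 ± 0.13) were lower by less than 2-fold. Zc3h18, which links the cap to the exosome, had a log2 change of 0.42 ± 0.13. The other 32 genes of the list were not analysed here.

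Features of the start windows differed in frequency between members called higher and lower. Listed protein-coding genes called higher and lower differed in the same direction, but those not called did not follow the members. Of the 68 members called lower, 14 (20.6%) lay head to head with a coding gene, that is, within 1000 bases of its start and running away from it. This held for 1 of 39 members called higher (2.56%), 5 of 79 not called (6.33%) and 6.81% of the 10147 long noncoding RNA genes of the annotation. Among listed protein-coding genes it held for 8.52% of those called lower, 2.08% of those called higher and 10.1% of those not called. The exception among the rises was A330008L17Rik, which faces the cadherin gene Cdh8 at 171 bases, and both were higher. At least 10 CG dinucleotides were found in the windows of 23 of 68 members called lower (33.8%), 2 of 39 called higher (5.13%) and 13 of 79 not called (16.5%), against 21.2% of the long noncoding RNA genes of the annotation. Among listed protein-coding genes the shares were 67.8% of those called lower, 45.2% of those called higher and 75.9% of those not called. In both features the coding genes not called thus lay above those called lower, unlike the members. CG dinucleotides were counted as the letters CG, which read the same on both strands. The median distance to the nearest coding start was 17.4 kb for members called lower and 110 kb for those called higher.

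Repeat content ran in the opposite order. More than 50% of the window was masked as repeat in 15 of 39 members called higher (38.5%), 14 of 68 called lower (20.6%) and 22 of 79 not called (27.8%). Among the 22 members too low to test the share was 36.4%. The corresponding share was 16.6% over all long noncoding RNA genes of the annotation and 2.04% over the listed protein-coding genes. Annotated starts may differ from those used in oocytes, which the counts do not show, and the share that reads from repeats take in these counts was not tested.

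**Figure D4:**
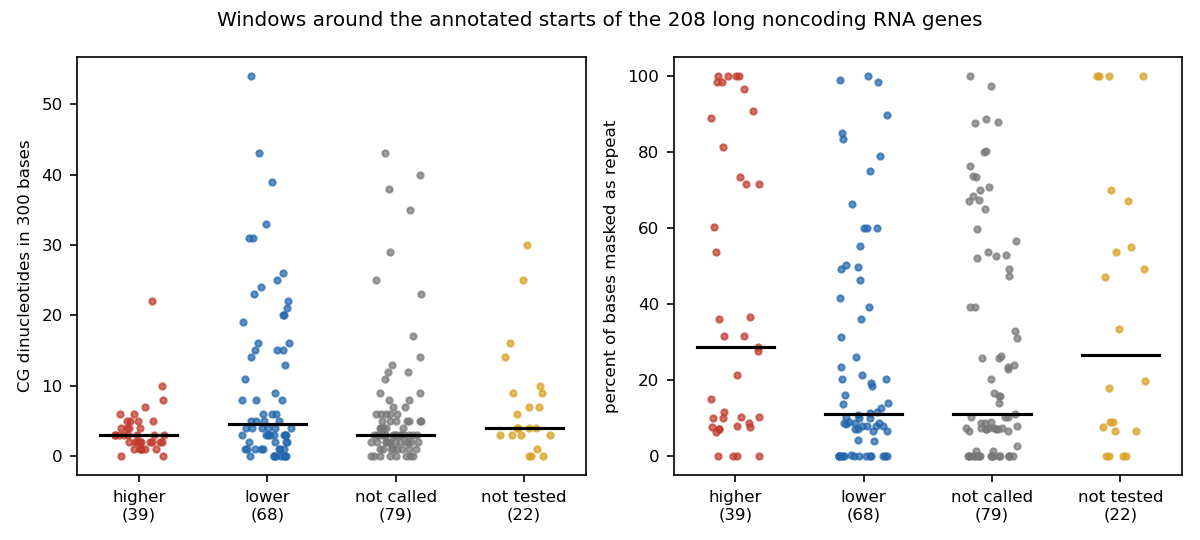
Each point is a member, placed by the number of CG dinucleotides (left) and the percent of bases masked as repeat (right) in the 300 bases around its annotated start, with the median as a bar and the number of members under each group. Windows with 10 or more CG dinucleotides are found in 23 of 68 members called lower and 2 of 39 called higher.

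The members that shared start sequence were found by aligning all 208 windows to one another, and a pair was linked at 75% identity or more over at least 100 bases. This linked 46 members (22.1%) into 11 sets. The largest set held 17 members on 8 chromosomes, and 1 of them, Gm16249, aligned with each of the others. It was mixed in direction: 3 were called higher (Gm8817, Gm29129 and Gm35191), 4 lower (Gm13715, Gm16249, Gm31925 and AC131117.1), 8 were not called and 2 were not tested. Thus Gm29129 and Gm31925, whose windows above share the same runs, had log2 changes of 2.38 and −1.18. Windows like these occur at 87 of 10147 annotated long noncoding RNA starts (0.857%), against 17 of the 208 members (8.17%), and at 3 of the other listed genes. The set was built by linking members to one another, so the member share is raised by construction. Members were not taken out of the 87.

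Most members of the second set were higher in Ehmt2GKO oocytes, several of them from almost no control reads. The set held 7 members on 6 chromosomes, with best matches of 76.9% to 97.9% identity over 264 to 300 bases. Gm45659 had 576, 516 and 597 reads in control libraries and 1863, 1602 and 1682 in Ehmt2GKO libraries (log2 change 1.60 ± 0.11, SE), and Gm28940 had 72, 76 and 54 against 217, 166 and 179 (1.46 ± 0.22). AC138027.1 had 1, 1 and 2 reads against 18, 17 and 23 (3.73 ± 0.61), and all 3 were called higher. The 3 members too low to test also gained: Gm44693 from 2 to 54 reads over the group, AC125223.2 from 1 to 35 and Gm43049 from 0 to 24. With so few control reads, these 3 and AC138027.1 could be listed only through a rise, so the selection fixed their direction. Gm45659 and Gm28940 had enough control reads to be listed in either direction. The exception was AC155813.1, the most divergent window, which was called lower with 25, 19 and 12 reads against 3, 0 and 4. Outside the members, 11 other listed genes had a start window that matched this set, of which 6 were called higher, none lower, 4 were not called and 1, a microRNA gene, was not tested. Of the 4 not called, AI481877 and Senp7 were negative (log2 changes −0.74 and −0.51). Clec10a and Aqr were positive (0.68 and 0.93). The 6 called higher were Popdc3, B020004J07Rik, Ddit4l, Prr18, Ctf2 and Gm12790, with log2 changes from 1.02 (Prr18) to 4.21 (B020004J07Rik). With 2, 2 and 0 control reads, B020004J07Rik could also be listed only through a rise. Such windows are not confined to these genes, since they occur at 80 annotated long noncoding RNA starts (0.788%) and 65 coding starts (0.296%), and most of these starts belong to genes that were not listed. The sets were drawn up after the values were known and were given no test.

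In the third set, C78283 rose, 1700019E08Rik had 0, 0 and 0 reads against 7, 7 and 4, and Platr14 had a log2 change of −0.90 that was not called. The remaining 8 sets held 2 or 3 members each. In no one of the 8 were all members called in 1 direction.

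**Figure D5:**
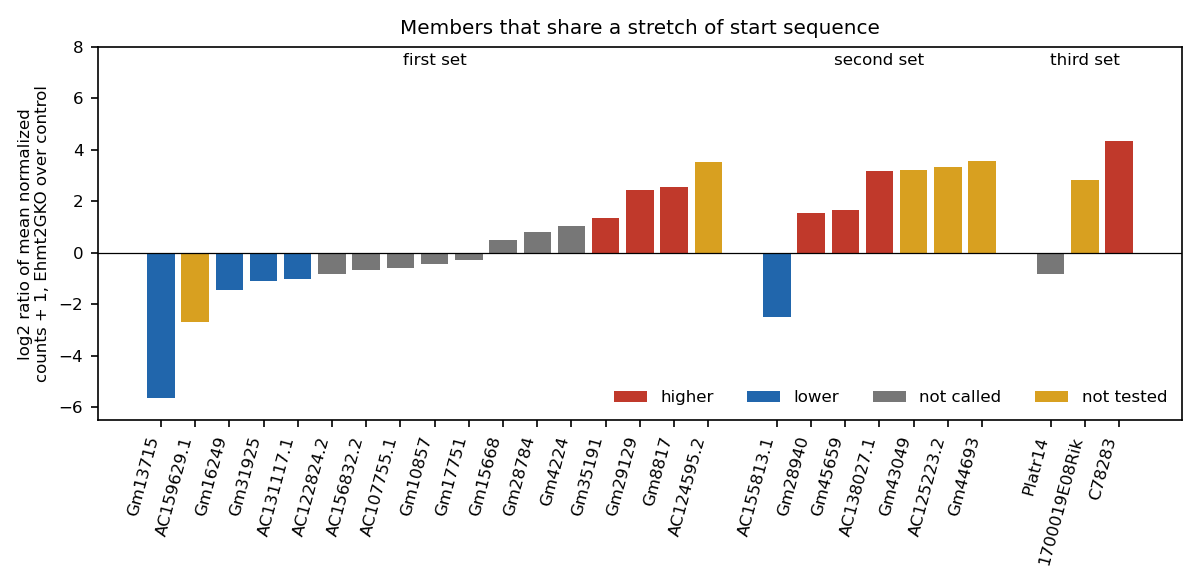
Bars give the log2 ratio of mean normalized counts plus 1, Ehmt2GKO over control, for each member of the first, the second and the third set of shared start sequence, coloured by call. The first set spreads from Gm13715 at −5.63 to AC124595.2 at 3.54, while 6 of 7 members of the second set lie above 0. Of these, AC138027.1, Gm43049, AC125223.2 and Gm44693 had almost no control reads and could be listed only through a rise.

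Coding neighbours were opposite in sign about as often as alike. The nearest coding gene was itself listed for 46 of the 208 members, and both genes were tested in 39 pairs. The signs were the same in 20 pairs and opposite in 19. In the 10 pairs with both genes called, 5 had the same sign and 5 had opposite signs. A same-sign pair was Gm19705 with the zinc finger gene Zfp281 at 45.9 kb (log2 changes −1.57 and −1.34). Opposite pairs included 4930481B07Rik with the zinc finger gene Zfp687 at 177 bases (−1.52 and 1.19) and Gm5087 with the synaptic vesicle gene Synpr at 142 bases (−1.22 and 1.30). Of the 14 members called lower that lay head to head with a coding gene, 4 had that gene listed. Among these was also 2810001G20Rik with Cox10 (−1.49 and 0.37), and Cox10 was not called. These pairs were named after their values were seen.

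Overlapping exons limit what some counts show. The exons of 38 members overlap those of another annotated gene, on the opposite strand in 35 of them, and without strand the reads of such a pair cannot be told apart. In 7 of these the other gene was listed. Gm12144 and Atp10b, a phospholipid-transporting ATPase, had log2 changes of 1.11 and 0.96, and the second stayed under 2-fold. AC154355.1 and Fam81b both fell (−1.10 and −1.73). Mkln1os and Mkln1, which encodes muskelin, had log2 changes of −0.68 and −1.002, and only Mkln1 was called. Members and partners had opposite signs for Gm15507 with the nuclear receptor gene Nr2e3 (−0.75 and 0.84) and Gm2479 with the calcium channel gene Orai1 (−0.49 and 0.93). Among the other members named in the text, exons overlap 5 annotated genes for Tug1, 2 for Mir22hg and Gm2694, and 1 each for A530040E14Rik, Gm15592, Gm10030, Platr30, Gm17575 and Dnmt3aos. With the 38 members left out, 34 of 151 tested members were higher and 54 were lower.

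A pair of antisense genes named for well-known coding genes is given after their values were seen. Dnmt3aos, antisense to the DNA methyltransferase gene Dnmt3a, was called higher with 44, 50 and 73 reads against 112, 127 and 108 (log2 change 1.05 ± 0.25, SE). Igf1os, antisense to the growth factor gene Igf1, was not called, with 410, 507 and 490 reads against 369, 318 and 313 (−0.50 ± 0.14).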

How the data were processed

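Whole-number read counts per gene, not normalized, were deposited by the authors for 6 libraries of polyadenylated RNA made with a SMART-Seq v4 kit, which does not mark strand. The submitters' processing notes name CASAVA, FastQC, HISAT2, DESeq2 and the GRCm38/mm10 build, without versions. The counting program, its annotation, its strand setting and its handling of reads with several matches are not given in the sources used here. The table lists only genes with a deposited adjusted p-value under 0.05, and the authors' own fold changes and p-values were not used. The 11 methylation libraries of the series were not analysed here. The depth over all genes is unknown.

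Genes were tested with edgeR 4.0.16 in R 4.3.3 (filterByExpr with a minimum count of 10, TMM, quasi-likelihood F-test, Benjamini-Hochberg adjustment over all tested genes) and called at more than 2-fold and an adjusted p under 0.01. Normalized counts are reads divided by DESeq2 1.42.0 median-ratio size factors (0.941 to 1.03). On simulated data with 200 genes changed by a fixed fold above the call threshold and the others unchanged, edgeR recovered 91.7% of those tested. The real table holds only genes selected for a difference, so this share is not the sensitivity for these data. Alternatives were other normalizations, DESeq2, limma 3.58.1 voom, other filters and thresholds, each library left out, and subsets of members.

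The members, the lists and the tests were chosen with earlier results of these data known. The antisense biotype was read as antisense_RNA, the table's spelling. Named genes were, of the called members that averaged 100 or more normalized counts without overlap of the groups, the 12 that rose most and the 12 that fell most, then the 5 most abundant members, the largest change in each biotype, members on a list, and members with at most 3 reads in each library of one group and at least 20 in each of the other. Positions come from GENCODE vM21, and sequences from the RefSeq GRCm38.p6 genome, whose lower-case masking gave the repeat shares. Of the members, 85 matched the RefSeq promoter table by symbol. Start windows and transcripts were compared with blastn 2.17.0. Python 3.11.15, pandas 2.3.3, numpy 2.4.6, scipy 1.17.1 and matplotlib 3.10.9 were used.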

Additional observations from a re-analysis of the deposited data

How the results depend on the processing

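The other normalizations, DESeq2 and voom called 97 to 108 members, against 107 as reported, and RLE scaling moved the median of all genes by 0.094 (log2). Calls higher and lower were 41 and 59 with RLE, 41 and 61 with upper-quartile scaling and 39 and 69 with library size only. They were 41 and 56 with DESeq2 and 39 and 65 with voom. Scaling factors came from genes all selected for a difference, so the point of no change does not rest on unchanged genes. Without the filter on low counts 130 of 208 members were called (54 higher, 76 lower). With at least 10 counts in every library, 67 of 150 were called (44.7%, 19 higher, 48 lower), against 57.5% as reported. That filter leaves out low-count members, and 68 of 70 tested members under 100 normalized counts were called as reported. With the fold tested against 2, 24 members were called (14 higher, 10 lower), and 260 of all listed genes against 897. Members whose exons overlap no other gene gave 88 of 151 (34 higher, 54 lower). Without the biotype antisense_RNA, an alternative chosen after seeing the data, 88 of 153 were called (32 higher, 56 lower). With each library left out in turn, 99 to 114 members were called, 36 to 45 higher and 60 to 72 lower, and 791 to 916 of all listed genes. The difference in the share of reads was −0.40 percentage points, −0.42 to −0.35 with a library left out and −0.54 without Gm1070, the member with most reads. With at least 10 counts in every library, Gm45768, C78283, Gm28404, AC164881.2, Gm13715, Gm10030 and Gm20646 were not tested and have no value. These include the largest rise and the largest fall. Where tested, 14 of 40 named members with a fit lost the call, all with the fold tested against 2. None gained it and none reversed over 593 values run. The cause of these changes was not tested beyond what each setting does by its construction. No paired analysis was possible because the control and Ehmt2GKO libraries share no replicate numbers. Reads on the genes of this table limit what low members can show, and 22 members were too low to test.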

Other observations

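The table also holds 14 genes of the biotype TEC, transcripts that await experimental proof of their kind and were not counted as long noncoding RNA genes. Of 13 tested, 5 were called higher and 5 lower. Gm37374 had no control read and 20, 28 and 17 reads in Ehmt2GKO libraries, and Gm38234 had none against 18, 18 and 19. Gm31579, the most abundant of them, had 3585, 3361 and 3865 reads against 2067, 2066 and 2039, a log2 change of −0.82 ± 0.10 (SE) that was not called.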
